A study of Homo sapiens and Mus musculus with 16 samples.

Results

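SK-HEP-1 cells, an established human liver cancer line, were exposed to an ethanol extract of the fruiting body of the fungus Antrodia cinnamomea (AcFBE, 0.5 mg/ml), and their microRNAs (miRNAs) were compared between 4 h (4T) and 2 h (2T) of exposure. The comparison rests on the 4 AcFBE-treated miRNA libraries among the 16 libraries of the series, 1 at each time in each of 2 batches. Batch 1 and batch 2 came from separate batches of culture and were read on different sequencers (SOLiD 3 and SOLiD 5500xl), so culture and sequencer cannot be told apart. Every 4T library was paired with the 2T library of its own batch. The study took RNA from each culture, so a change from 2T to 4T also holds differences between cultures and libraries of a batch. The 4 untreated libraries of the same batches (2U and 4U) came from cells given DMSO alone for the same times. They served to show how miRNA levels differed between 2 h and 4 h without the extract. All 8 libraries came from the same cell line.

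A miRNA is cut from a longer hairpin transcript by Drosha in the nucleus and Dicer in the cytoplasm, and 1 strand is then loaded into an Argonaute protein. The loaded strand pairs with messenger RNAs mainly through its seed, bases 2 to 8 from the 5′ end, and lowers the output of those messengers. Mature miRNAs are often stable for longer than messenger RNAs, and a level at 4 h carries over part of what was present at 2 h. In liver cancer, miR-21 and the miR-17-92 cluster are known as growth-promoting miRNAs. The let-7, miR-29 and miR-34 families are known for restraining growth.

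Levels are given as RPM, reads per 1000000 quality reads of the library, and a change as log2(RPM 4T / RPM 2T) within a batch. The question was which miRNAs recovered at 4 h from their level at 2 h and which were lower still, in both batches. Of the 384 miRNAs listed in either batch, 262 were listed in both. The comparison used the 159 whose level averaged 1 RPM or more in the 4 treated libraries. Among these, 150 had reads in all 4 treated libraries. Where a library had 0 reads, 3 reads were put in its place to give a bound, and no ratio was formed when both counts were at or under 3 reads.

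The mature sequences below belong to miRNAs whose level moved the same way in both batches, or whose seed is shared by miRNAs that parted. Capitals mark the seed. Sequences and positions are RefSeq's on GRCh38.p14, in which 134 of the 159 miRNAs were matched by name. The first 9 miRNAs were higher at 4 h in both batches.
miR-574-5p: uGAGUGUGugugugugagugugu
miR-423-5p: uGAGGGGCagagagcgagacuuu
miR-191: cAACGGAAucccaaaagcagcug
miR-222: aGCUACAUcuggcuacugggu
miR-365: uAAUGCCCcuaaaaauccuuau
miR-181a: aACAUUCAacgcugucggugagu
let-7b: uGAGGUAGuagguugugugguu
miR-193a-5p: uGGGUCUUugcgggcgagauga
miR-34a: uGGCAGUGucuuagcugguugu

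The next 7 were lower at 4 h in both batches. The sequences of miR-103a and miR-107 share their seed and differ at a single base, G22C (miR-103a first, counted from the 5′ end).
miR-503: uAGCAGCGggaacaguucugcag
miR-103a: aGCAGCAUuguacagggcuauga
miR-107: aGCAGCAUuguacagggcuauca
miR-27a: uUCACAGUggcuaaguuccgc
miR-192: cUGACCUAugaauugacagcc
miR-324-5p: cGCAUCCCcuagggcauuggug
miR-7: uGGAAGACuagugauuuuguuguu

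The last 4 are shown because they share a seed with a neighbour and moved apart in at least 1 batch. In the miR-29 family, miR-29a and miR-29c differ only by C10U, and miR-29b and miR-29c by A18G, G21U and U22A over their shared length (first named miRNA first, counted from the 5′ end). miR-221 carries the seed of miR-222 above.
miR-29a: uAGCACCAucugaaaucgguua
miR-29b: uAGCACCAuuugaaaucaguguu
miR-29c: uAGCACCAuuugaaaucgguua
miR-221: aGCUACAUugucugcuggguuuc

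The miRNAs listed as miR-103a and miR-103b had identical counts in all 8 libraries. Their RefSeq sequences are reverse complements of each other (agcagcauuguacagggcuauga and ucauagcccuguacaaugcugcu), and they were counted once, as miR-103a/b. Names follow the tables, in which an asterisk marks the strand of a hairpin that was named as the passenger. It was not always the scarcer strand here, as let-7i* had 90.7 RPM against 9.49 RPM for let-7i in 2T of batch 1.

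The treated libraries held 7692670 quality reads in 2T and 9175263 in 4T of batch 1, and 17000767 and 14109705 in batch 2. Reads assigned to listed miRNAs numbered 212335, 223704, 178494 and 154244 in that order. miRNA reads took 2.76% of quality reads in 2T and 2.44% in 4T of batch 1, and 1.05% and 1.09% in batch 2, with Wilson 95% intervals that do not overlap in either pair. The listed miRNA reads were fewer than the miRBase-mapped reads in the study's library statistics, from which the quality reads were taken. The number of miRNAs listed with reads was the same as the number counted as detected in those statistics in the 4 libraries of batch 1 and smaller in the 4 of batch 2. The ratio of the shares, 4T over 2T, was 0.883 in batch 1 and 1.04 in batch 2. Neither direction held throughout: without miR-29b alone, an alternative chosen after seeing the data, the ratios were 1.13 and 0.98, and per read after the tRNA and length filters that of batch 2 was 0.858 and 0.926. The share stayed below the untreated share of its time in all 4 pairs (12.2% and 6.46% in batch 1, 2.63% and 2.39% in batch 2). The smallest listed count above 0 was 2, and 3 reads correspond to 0.176 to 0.390 RPM in the treated libraries. The intervals hold counting error alone, because the reads carry no molecular identifiers and copies of 1 molecule cannot be recognised.

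No single miRNA passed the test between 4T and 2T. With edgeR's quasi-likelihood test and Benjamini-Hochberg adjustment, 0 of 159 passed an adjusted p of 0.05 (0% called), and the smallest adjusted p was 0.993. At an unadjusted p under 0.05 there were 3 (1.89% of those tested), miR-423-5p, miR-574-5p and miR-222, each higher at 4 h. miR-423-5p and miR-222 averaged under 1 RPM at 2 h and were tested only through their 4T levels, so their direction was in part set by that filter. DESeq2 gave 0 calls with 8 at that unadjusted threshold, and limma gave 0 with 4. The biological coefficient of variation was 0.683 over the 8 libraries. In counts simulated with that spread, the edgeR test called 0 of 40 miRNAs changed 4-fold. An absence of calls therefore does not show that levels were unchanged. The directions that follow are descriptions of 2 pairs, for which an exact sign-flip test cannot give a p below 0.5.

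Of the 159 miRNAs, 43 (27%) were higher in 4T than in 2T in both batches, 30 (18.9%) were lower in both, and 82 (51.6%) moved in opposite directions. A further 4 gave no ratio in 1 batch. In bulk RNA, fewer cells of a type and less of a miRNA per cell cannot be told apart. Changes of at least 2-fold in both batches were upward for 6 miRNAs (3.77%), downward for 2 (1.26%) and opposite for 9 (5.66%). The 1 RPM filter set these directions in part. Of the 6, miR-423-5p and miR-222 passed it only through 4T, and of the 2, miR-18a only through 2T. Among all tested, 3 averaged under 1 RPM at 2T (2 higher in both batches, 0 lower) and 8 at 4T (0 higher, 3 lower). The median log2 ratio was -0.05 in batch 1 (quartiles -0.86 and 0.67) and 0.18 in batch 2 (quartiles -0.53 and 0.68). Across the 155 miRNAs with a ratio in both, the 2 batches gave a Pearson's r of -0.037 and a Spearman's rho of -0.110, a correlation across miRNAs of the same libraries, which are not independent. Among the 51 miRNAs with at least 10 RPM in all 4 treated libraries r was -0.129, and 26 of the 51 had the same direction. The counting interval of the ratio excluded no change in both batches for 74 miRNAs, of which 35 had the same direction and 39 the opposite one.

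**Figure D1:**
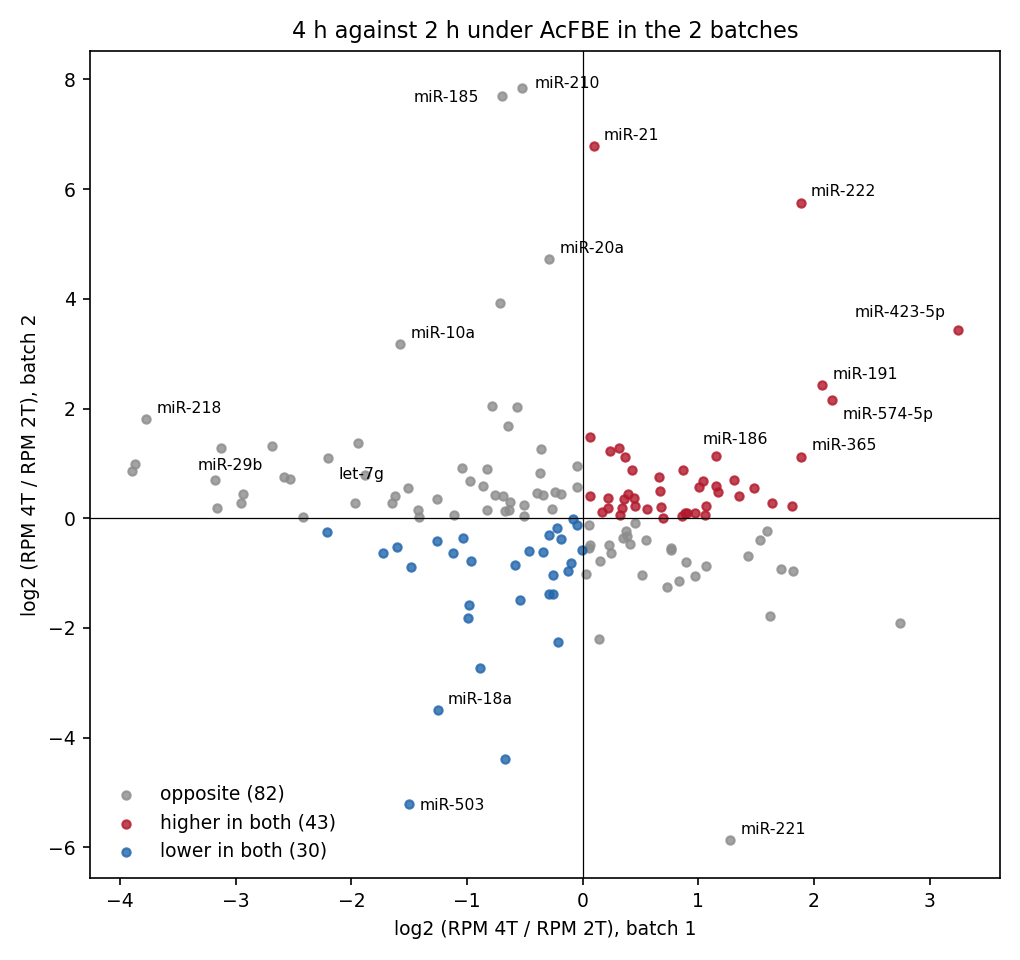
Each point is 1 miRNA, with log2(RPM 4T / RPM 2T) of batch 1 on the x axis and of batch 2 on the y axis, coloured by whether it was higher in both batches (43), lower in both (30) or opposite (82). The points do not follow a line (r = -0.037 over 155 miRNAs), and bounds stand in for ratios with a count of 0.

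The balance of directions depends on what the counts are divided by. Dividing by the reads left after the study's removal of tRNA shifted every log2 ratio by -0.36 in batch 1 and -0.28 in batch 2, and gave 21 miRNAs higher in both batches and 57 lower. Dividing by the reads left after its length filter gave 28 higher and 47 lower, with shifts of -0.26 and -0.17. The first 10 miRNAs higher in both batches and the first 10 lower in both, described next, kept their directions under these and the 3 other scalings.

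Among the miRNAs that reached 10 RPM in at least 1 treated library, 103 in all, 32 were higher in both batches, 16 lower and 54 opposite. This limit favours a direction where 1 time alone reaches it: 15 of the 103 did so only at 4 h (5 higher in both, 0 lower) and 5 only at 2 h (0 higher, 2 lower). Of the miRNAs described here, miR-574-5p, miR-222 and miR-30a* entered only through a 4T library and miR-7 only through a 2T library. The first 10 of each direction, ranked by the smaller of their 2 changes, are described here. Over all 159 tested, both 4 h levels lay above both 2 h levels for 11 miRNAs (6.92%) and below both for 15 (9.43%). miR-574-5p, from a hairpin on the plus strand of chromosome 4 (chr4:38868056-38868078), was higher by the same amount in both batches. Its level was 2.47 RPM in 2T and 11.01 RPM in 4T of batch 1 (19 and 101 reads), and 0.588 and 2.62 RPM in batch 2 (10 and 37 reads). The mean log2 change was 2.16 ± 0.00 (SD, n = 2 pairs), with an edgeR log2 fold change of 2.14 (SE 0.80, unadjusted p = 0.0322, adjusted p = 0.993). Both levels at 4 h lay above both at 2 h, the nearest being 2.62 RPM of batch 2 and 2.47 RPM of batch 1. The other arm of its hairpin, miR-574-3p, was higher in batch 1 (1.82) and lower in batch 2 (-0.97).

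miR-191 (chr3:49020672-49020694, minus strand), which is processed together with miR-425 from an intron of DALRD3 and is often raised in liver tumours, stood far below DMSO at 2 h, at log2 ratios of -5.04 and -7.80. It had 11.3 RPM in 2T and 47.4 RPM in 4T of batch 1, and 0.529 and 2.83 RPM in batch 2, where 2T held 9 reads and 4T 40 reads. The mean log2 change was 2.24 ± 0.25 (SD, n = 2 pairs). The edgeR change of 2.13 became 0.67 without the 4T library of batch 1 and 3.89 without its 2T library. In DMSO the same miRNA was lower at 4 h in both batches, at 372.7 and 27.8 RPM in batch 1 and at 118 and 27.1 RPM in batch 2. At 4 h its treated level was above the untreated one in batch 1 (log2 0.77) and below it in batch 2 (-3.26). Its neighbour miR-425 had 98.5 and 179.8 RPM in 2T and 4T of batch 1 and 13.1 and 24.1 RPM in batch 2, a mean log2 change of 0.87 ± 0.01. Both members of the pair were higher at 4 h in both batches, miR-191 by more, and the levels of the 2 times overlapped across batches. In DMSO miR-425, unlike miR-191, was also higher at 4 h in both batches, by log2 0.53 and 1.11.

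miR-222 (chrX:45747036-45747056, minus strand), which targets the cell-cycle inhibitor p27, had few reads at 2 h. Its levels were 1.30 and 4.80 RPM in batch 1 (10 and 44 reads) and 0.294 and 15.9 RPM in batch 2 (5 and 224 reads). The 2 times did not overlap. The log2 change was 1.88 in batch 1 and 5.75 in batch 2, and edgeR gave 3.39 (SE 1.32, unadjusted p = 0.0384, adjusted p = 0.993). Left without the 2T library of batch 2, the fitted change was 1.97, and without that of batch 1 it was 5.63.

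miR-365, whose mature strand is the same from chr16:14309340-14309361 and chr17:31575478-31575499 (both plus strand), was the most abundant of the miRNAs that were at least 2-fold higher in both batches. It had 32.4 and 119.8 RPM in batch 1 and 12.2 and 26.5 RPM in batch 2, log2 changes of 1.89 and 1.12, and the 2 times overlapped across batches. The fitted change of 1.44 was 0.91 without 2T of batch 1. At 4 h it was still lower than in DMSO in both batches, by log2 ratios of -1.18 and -0.83 against -2.99 and -1.17 at 2 h. Its neighbour on chromosome 16, miR-193b, was not higher in both (0.45 and -0.09). Of its neighbours on chromosome 17, miR-193a-5p was and miR-193a-3p was not. miR-186, with 4.03 and 8.94 RPM in batch 1 and 1.94 and 4.25 RPM in batch 2, was below the 10 RPM limit and completes the 2-fold group together with miR-423-5p. miR-423-5p (chr17:30117095-30117117, plus strand) had 0 and 34 reads in batch 1 and 2 and 18 reads in batch 2. Its log2 ratio was at least 3.25 in batch 1, against 3 reads, and 3.44 in batch 2 with a counting interval of 1.38 to 6.59. miR-186 and miR-365 were no longer 2-fold higher in both batches after scaling to DESeq2 size factors, to reads after the tRNA filter or to reads after the length filter.

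miR-34a, a direct transcriptional target of p53 (chr1:9151735-9151756, minus strand), had 142 and 396.9 RPM in batch 1 and 115 and 169 RPM in batch 2, a mean log2 change of 1.01 ± 0.66 (SD, n = 2 pairs) without overlap between the times. In DMSO it was 322 and 298 RPM in batch 1 and 318 and 56.5 RPM in batch 2. Per quality read it lay below DMSO at 2 h (-1.18 and -1.46) and above DMSO at 4 h in both batches (0.41 and 1.58). Only 2 other miRNAs did so, miR-423-5p and miR-574-5p, out of the 37 that were lower than DMSO at 2 h in both batches and higher at 4 h than at 2 h in both, and their crossings rest on few reads. At 2 h in batch 1, 2T and 2U held 0 and 4 reads of miR-423-5p (a bound) and 19 and 21 reads of miR-574-5p. At 4 h, 4T and 4U held 34 and 30 reads of miR-423-5p in batch 1 and 18 and 21 reads in batch 2. The crossing of miR-34a in batch 1 depends on the scaling. As part of the listed miRNA reads it was not below DMSO at 2 h there (1095 of 212335 reads in 2T, 2296 of 870663 in 2U). The edgeR change between 4T and 2T for miR-34a was 0.98 (SE 0.78, adjusted p = 0.993), and it was 0.56 without the 2T library of batch 1 and 1.47 without that of batch 2.

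miR-181a, let-7b, miR-193a-5p and miR-30a* made up the rest of those higher in both. miR-181a, which tunes lymphocyte signalling and is raised in several tumours, had 96.7 and 239 RPM in batch 1 and 31.8 and 51.5 RPM in batch 2. let-7b, a let-7 family member, had 15.6 and 32.2 RPM in batch 1 and 7.0 and 11.2 RPM in batch 2. For miR-193a-5p the levels were 34.97 and 55.3 RPM and then 7.71 and 12.9 RPM, and for miR-30a*, the partner strand of miR-30a, 1.30 and 2.62 RPM and then 7.12 and 10.6 RPM. Their mean log2 changes lay between 0.70 and 1.0. In batch 1 miR-30a* had 10 and 24 reads, with a counting interval that included no change. The fitted change ranged from 0.28 to 1.90 for miR-181a and from 0.16 to 1.60 for miR-30a* when single libraries were left out, lowest without 2T of batch 1 and highest without 2T of batch 2. let-7b, miR-193a-5p and miR-30a* were also higher at 4 h than at 2 h in both untreated pairs, with log2 ratios of 0.59 and 1.96, 1.38 and 1.70, and 0.63 and 2.61.

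**Figure D2:**
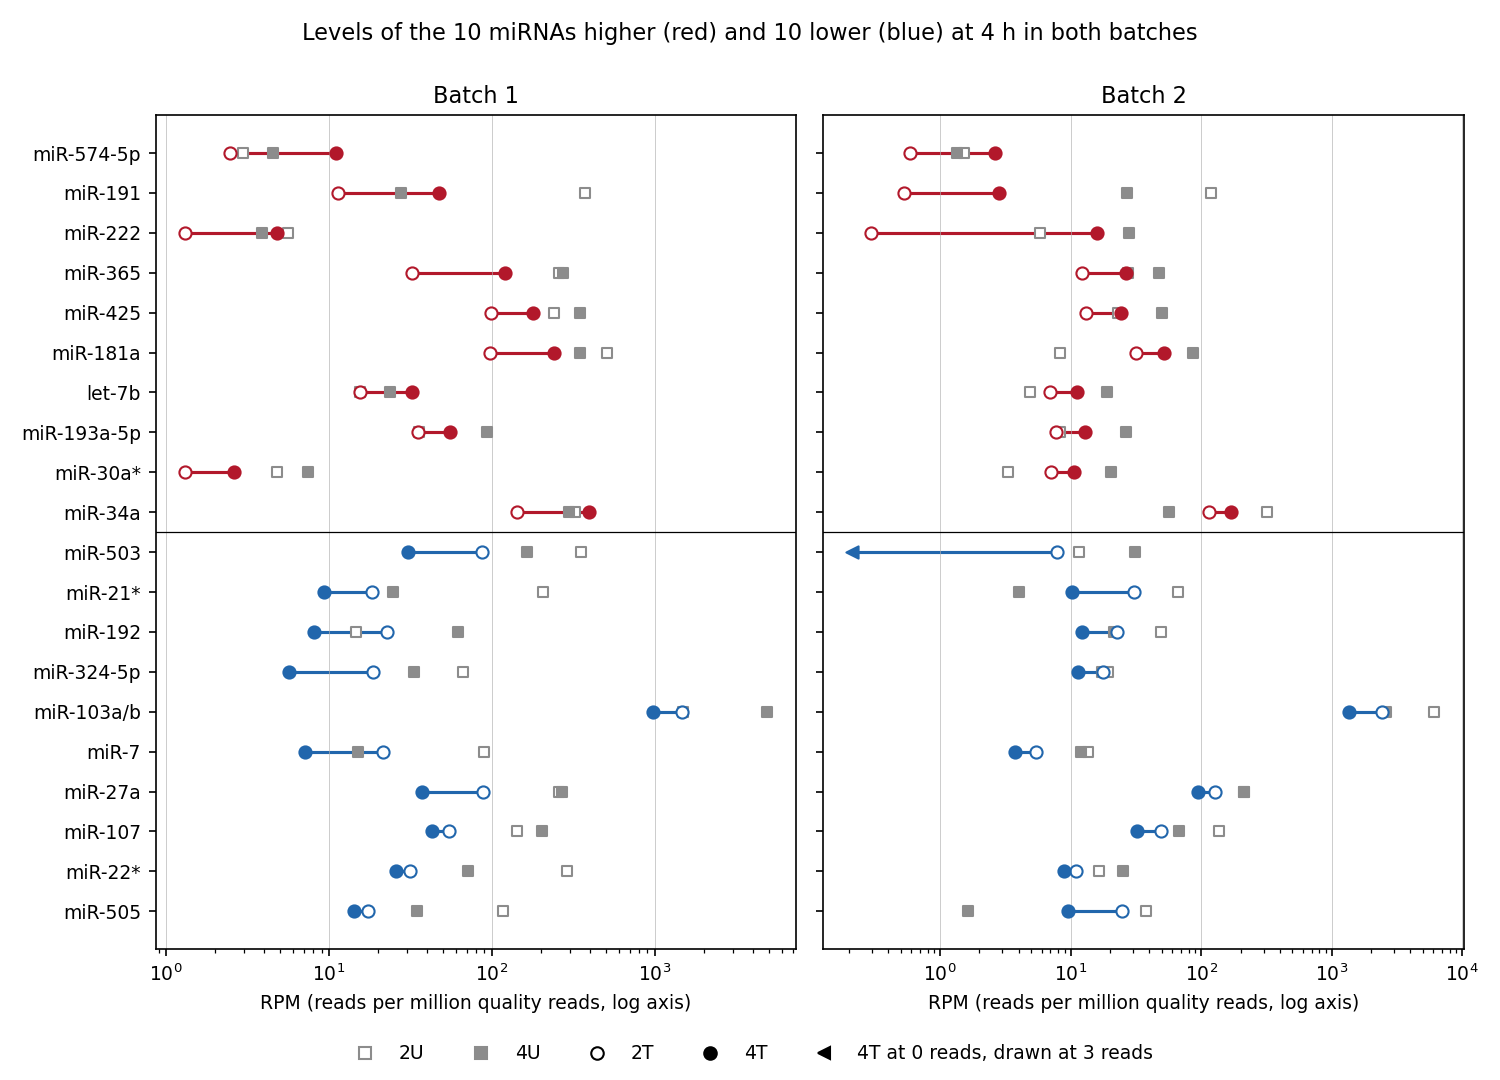
Levels in RPM on a log axis for the first 10 miRNAs higher at 4 h (red) and the first 10 lower at 4 h (blue) in both batches; open circles are 2T, filled circles 4T, grey squares the untreated 2U (open) and 4U (filled), and 1 point is 1 library. miR-503 of batch 2 had 0 reads in 4T and is drawn at 3 reads (0.213 RPM). In batch 2 only miR-574-5p and miR-34a of the red miRNAs lie to the right of their 4U square at 4T.

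Of the miRNAs lower in both batches, miR-503 had the largest change by the smaller of the 2. In batch 1 alone miR-98 (log2 -2.21), miR-324-5p (-1.72) and miR-7 (-1.61) were lower by more. miR-503 belongs to the miR-15/16 family that restrains cyclins (chrX:134546371-134546393, minus strand). Its levels were 86.8 RPM in 2T and 30.7 RPM in 4T of batch 1, and 7.88 RPM (134 reads) and 0 reads in batch 2. The log2 ratio was -1.498 in batch 1 and at most -5.21 in batch 2, against 3 reads. The edgeR adjusted p was 0.993 (unadjusted p = 0.112), and the fitted change of -2.98 was -1.56 without 4T of batch 2 and -9.74 without 4T of batch 1. miR-424, from the same cluster, was lower in batch 1 (479.9 and 61.9 RPM) and slightly higher in batch 2 (202 and 245 RPM). The other miRNA at least 2-fold lower in both batches, miR-18a of the miR-17-92 cluster, was scarce. It had 2.60 and 1.09 RPM in batch 1 and 2.41 and 0.213 RPM in batch 2, where 4T had 3 reads (log2 -3.50, counting interval -5.84 to -1.86). miR-18a averaged under 1 RPM at 4 h and was tested only through its 2T levels, so its direction was in part set by that filter.

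Of the 10 most abundant miRNAs, only miR-103a/b was lower in both batches per quality read, although let-7f was too under 4 of the 5 other scalings. The mature miR-103a comes from loci on chromosomes 5 and 20 and miR-107 from chromosome 10, within genes of the pantothenate kinase family of coenzyme A synthesis, and both miRNAs are known to act on insulin sensitivity and on Dicer. miR-103a/b had 1464 and 974 RPM in batch 1 and 2432 and 1346 RPM in batch 2, a mean log2 change of -0.72 ± 0.19 (SD, n = 2 pairs). miR-107 had 54.5 and 42.9 RPM and then 49.3 and 32.0 RPM, a mean of -0.48 ± 0.20, and its fitted change of -0.50 was -0.20 without 2T of batch 2 and -0.75 without 2T of batch 1. The 2 sequences differ at 1 base, so reads could have been split between them by the counting, and their sum gave log2 ratios of -0.58 and -0.85. For each of the 2, both levels at 4 h lay below both at 2 h. In DMSO miR-103a/b moved in opposite directions, at 1483 and 4858 RPM in batch 1 and 6122 and 2591 RPM in batch 2.

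miR-27a (chr19:13836447-13836467, minus strand), a regulator of lipid metabolism transcribed with miR-23a and miR-24, had 88.7 and 37.1 RPM in batch 1 and 126.6 and 95.1 RPM in batch 2. Its paralogue miR-27b, with 4.16 and 2.62 RPM in batch 1, had 76 reads in 2T and 0 reads in 4T of batch 2. miR-23a from the same transcript as miR-27a was higher in batch 1 (1.06) and level in batch 2 (0.05, counting interval -0.08 to 0.19, negative under the 5 other scalings), and miR-24 was higher in batch 1 (0.14) and lower in batch 2 (-2.21). The cluster did not move as a unit. The fitted change of miR-27a was -0.75, and it lay between -1.56 without 4T of batch 2 and -0.17 without 4T of batch 1.

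miR-7, miR-192 and miR-324-5p were each lower in both batches. miR-7, which targets EGFR, had 21.6 and 7.08 RPM in batch 1 and 5.41 and 3.76 RPM in batch 2. miR-192, a miRNA of liver and gut epithelium, had 22.6 and 8.07 RPM and then 22.7 and 12.2 RPM. miR-324-5p had 18.7 and 5.67 RPM and then 17.7 and 11.4 RPM. Their mean log2 changes were -1.07 ± 0.76, -1.19 ± 0.42 and -1.18 ± 0.77 (SD, n = 2 pairs), all at an edgeR adjusted p of 0.993. For miR-192 and miR-324-5p the 2 times did not overlap. In DMSO miR-7 (log2 -2.56 and -0.16) and miR-324-5p (-0.99 and -0.16) were also lower at 4 h in both batches. miR-192 moved in opposite directions there (2.08 and -1.19). The fitted change of miR-7, -1.06, was -0.68 without 4T of batch 1. That of miR-324-5p, -1.01, was -2.21 without 4T of batch 2 and -0.27 without 4T of batch 1. The remaining 3, miR-21*, miR-22* and miR-505, had mean log2 changes of -1.28, -0.30 and -0.84. Leaving out the 2T library of batch 2 brought the fitted change of miR-21* from -1.41 to -0.019 and turned the sign of the others, to 0.17 for miR-22* and 0.67 for miR-505. For miR-22* the counting interval in batch 2 also included no change (-0.64 to 0.03). That of miR-505 in batch 1 did too (134 reads in 2T and 131 in 4T). In DMSO miR-21* was lower at 4 h in both batches as well, by more than under AcFBE (log2 -3.07 and -4.04). So was miR-505, with 117.6 and 34.7 RPM in 2U and 4U of batch 1 and 37.5 and 1.63 RPM in batch 2. miR-22* moved in opposite directions in DMSO (-2.02 and 0.59).

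The most abundant miRNAs carried most of the reads, and most of them changed in 1 batch only or in opposite directions. miR-125b, with 3976 and 7205 RPM in batch 1 and 1510 and 1548 RPM in batch 2, was higher in both, by log2 0.86 and 0.04. Scaling to the tRNA-filtered reads, to the length-filtered reads, to the miRNA total or by TMM or DESeq2 size factors each turned its change in batch 2. miR-100 had 2944 and 3666 RPM and then 277 and 670.5 RPM, with a mean log2 change of 0.80 ± 0.68, and its direction in batch 1 turned only after the tRNA-filtered scaling. miR-15b was higher in both batches (0.89 and 0.10), but not after the tRNA-filtered, length-filtered, TMM or DESeq2 scaling. miR-29a had 1349 and 3027 RPM and then 319.6 and 445.5 RPM, a mean log2 change of 0.82 ± 0.49, and was higher in both batches under all 6 scalings. miR-29a was the only one of the 10 to be so. In DMSO miR-29a (log2 0.72 and 1.46) and miR-15b (1.08 and 0.01) were also higher at 4 h in both batches. miR-100 was lower there in both (-1.58 and -0.63), and miR-125b moved in opposite directions (-0.28 and 0.11). Leaving out 2T of batch 1 or of batch 2 took the fitted change from 0.78 to 1.19 or 0.40 for miR-100, from 0.79 to 0.42 or 1.23 for miR-29a, from 0.41 to -0.0047 or 0.90 for miR-125b and from 0.49 to 0.21 or 0.78 for miR-15b.

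miR-29b, the most abundant miRNA of 2T in batch 1, split the miR-29 family. It had 6718 and 740.5 RPM in batch 1 and 982 and 1591 RPM in batch 2, log2 ratios of -3.18 and 0.70. miR-29c was higher in both batches (0.22 and 0.37), as was miR-29a, so the 3 members with the same seed did not move together in batch 1. The untreated libraries showed the same split of miR-29b, with log2 ratios of -3.27 and 0.79. Because of miR-29b, the reads of the family summed to 8093 and 3798 RPM in batch 1 and 1313 and 2052 RPM in batch 2. miR-19b (-1.51 and 0.55), let-7f (-1.11 and 0.07) and let-7g (-2.20 and 1.09) were likewise lower in batch 1 and higher in batch 2, and miR-17 was near level in batch 1 (-0.05) and higher in batch 2 (0.57).

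Among miRNAs with at least 10 RPM in a treated library, the largest opposite changes by the smaller of the 2 sizes were those of miR-218, miR-10a, miR-193a-3p, miR-221 and let-7g. miR-221 had 16.8 and 40.5 RPM in batch 1 and 344 and 5.88 RPM in batch 2 (5846 and 83 reads), log2 ratios of 1.27 and -5.87. miR-222, of the same cluster and with the same seed, was higher in that batch by 5.75. miR-218 had 75.9 and 5.56 RPM and then 3.06 and 10.7 RPM. miR-10a had 5 and 2 reads in batch 1 and 35 and 262 reads in batch 2. Its counting interval in batch 1 (-4.97 to 1.03) included no change, so its direction there is uncertain. miR-193a-3p was lower in batch 1 (-1.94) and higher in batch 2 (1.37), while its partner strand miR-193a-5p was higher in both.

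Grouping the 134 miRNAs with a matched sequence by seed gave 21 groups of 2 or more, with 56 miRNAs in all. Tested relatives without a matched sequence, such as miR-30b, miR-30d and miR-130a, are not in these sums. With the reads of each group summed, 6 groups were higher in both batches, 2 lower in both and 13 opposite. The groups lower in both were miR-103a/b with miR-107 and miR-27a with miR-27b, and they were lower in both under all 6 scalings. Of the 6 higher groups (miR-181a/b, miR-100 with miR-99a and miR-99b, miR-130b with miR-301a, miR-30a/c/e, miR-26a/b and miR-23a/b), only miR-181a/b was higher in both under all 6. The miR-30 group was higher in both only without miR-30b and miR-30d: the 5 tested members of the family summed to 224.9 and 204 RPM in batch 1 and 92.3 and 126.9 RPM in batch 2, log2 ratios of -0.14 and 0.46. The miR-181a/b sum was 104 and 262.6 RPM in batch 1 and 33.7 and 52.5 RPM in batch 2. The let-7 seed group of 8 members, including miR-98, summed to 2383 and 1028 RPM in batch 1 and 610 and 839 RPM in batch 2, log2 ratios of -1.21 and 0.46. Its members ranged from -2.21 to 1.04 in batch 1 and from -2.73 to 1.49 in batch 2. Sequences within this group differ by as little as 1 base (let-7a and let-7f, G12A), so counts between members are uncertain where the alignment could split them.

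**Figure D3:**
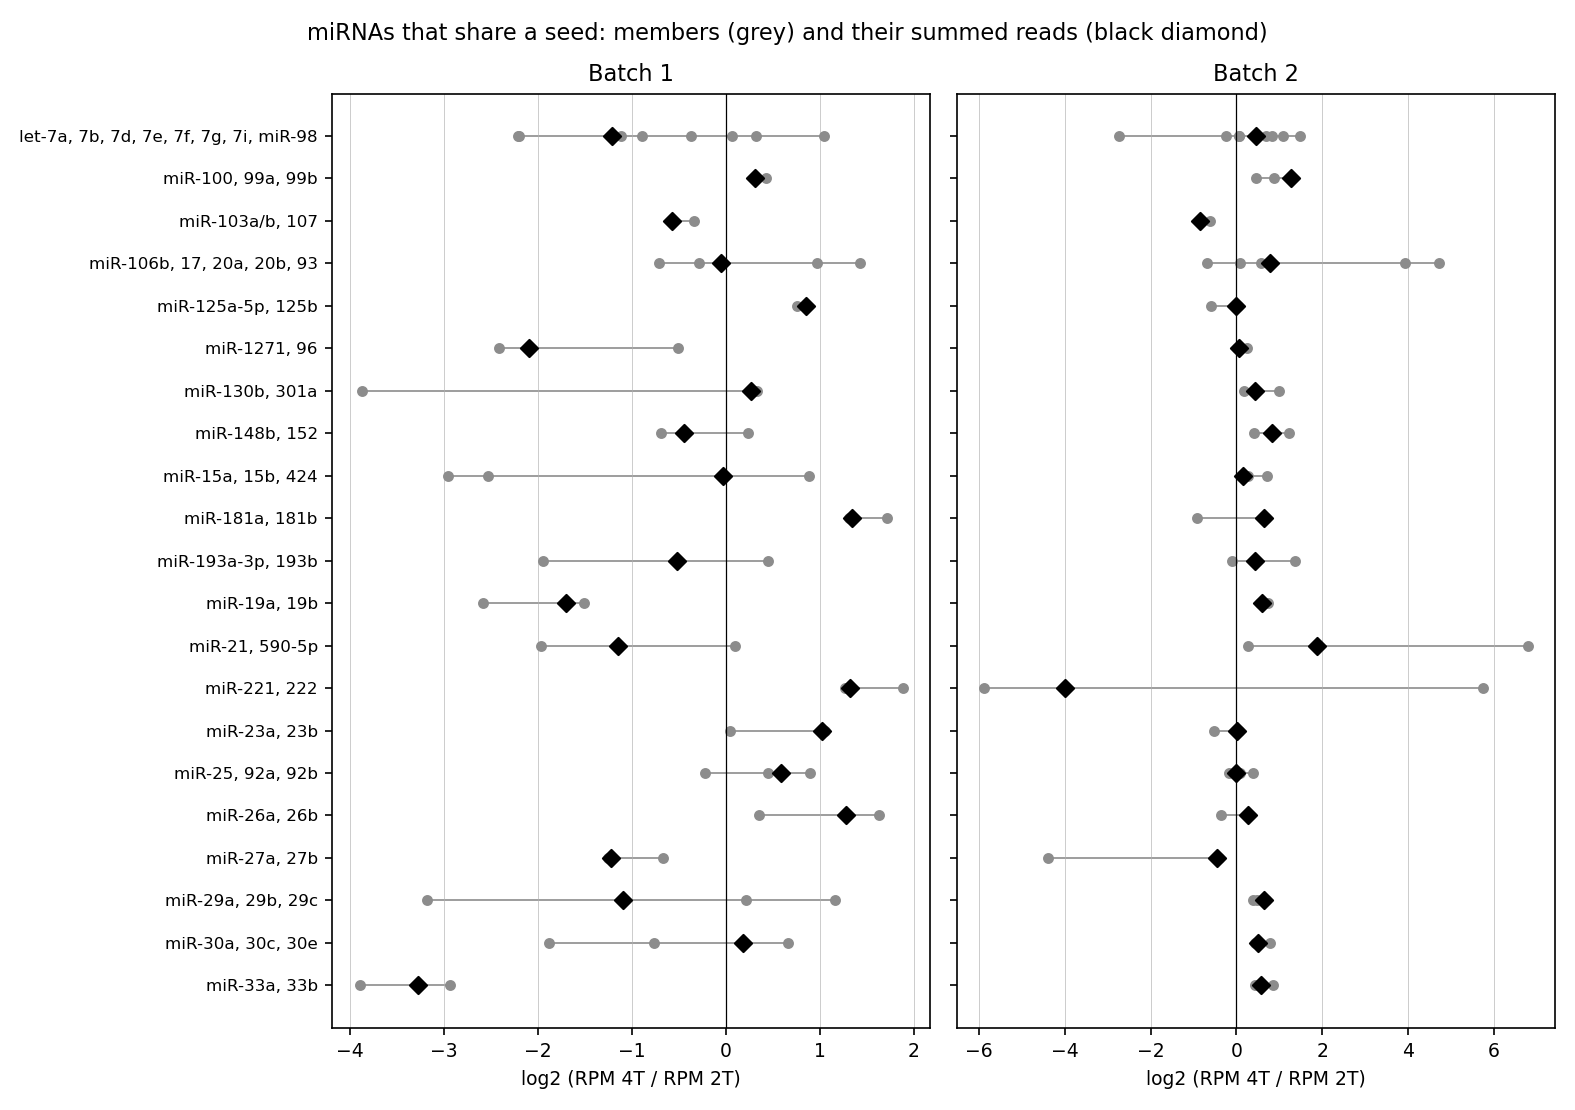
log2(RPM 4T / RPM 2T) of the 21 groups of miRNAs with a common seed in batch 1 (left) and batch 2 (right), with grey points for members and a black diamond for the summed reads of the group; the 2 panels have different x scales. The diamonds lie left of 0 in both panels for miR-103a/b with miR-107 and for miR-27a with miR-27b, and right of 0 in both for 6 groups, of which miR-30a, 30c and 30e lack the tested miR-30b and miR-30d.

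Read against the 27% higher and 18.9% lower in both batches over all tested miRNAs, the lists of families and clusters had few members each and none passed the edgeR test. The miR-17-92 cluster had 1 of 6 members higher in both (miR-92a), 1 lower (miR-18a) and 4 opposite, with summed levels of 3331 and 1851 RPM in batch 1 and 854 and 1265 RPM in batch 2. Its paralogous miR-106b-25 cluster had 1 of 3 in each direction (miR-106b higher, miR-25 lower, miR-93 opposite). The let-7 family had 3 of 8 tested members higher, 2 lower and 3 opposite. The miR-99/100 and miR-10 family had 2 of 4 higher and 0 lower, and the miR-30 family 1 of 5 higher and 0 lower. The family of miR-130 and miR-301 had 2 of 3 higher and 0 lower, and the miR-15/16 family 1 of 4 higher (miR-15b) and 1 lower (miR-503). Of the miR-23/27/24 clusters 1 of 5 was higher and 2 lower. Passenger strands, names with an asterisk, had 4 of 22 higher and 6 lower in both, with median log2 ratios of 0.19 and -0.36.

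Recovery toward the untreated level was described with the comparisons of treated to untreated libraries at each time, in which the 2T library is shared with the change from 2T to 4T. At 2 h 131 of the 159 miRNAs were below DMSO in both batches, with median log2(RPM 2T / RPM 2U) over all tested of -1.85 in batch 1 and -1.17 in batch 2. At 4 h the medians of log2(RPM 4T / RPM 4U) were -1.57 and -0.996. The untreated levels changed between the times as well. The median log2(RPM 4U / RPM 2U) was -0.46 in batch 1 and -0.01 in batch 2, against -0.05 and 0.18 for 4T over 2T. In batch 1 the smaller gap at 4 h thus went with lower untreated levels and not with higher treated ones. Of the 131, 37 were higher at 4 h than at 2 h in both batches (28.2%), 25 lower in both (19.1%) and 67 opposite (51.1%), close to the 27%, 18.9% and 51.6% over all tested. Of the 37, 26 were still below the 4 h DMSO level in both batches. Of the 25, 20 were below it in both. Over all tested miRNAs, 99 were below DMSO in all 4 pairs. All of these ratios are per quality read, and their counts and medians are not given under another scaling. At 2 h miRNA reads took 2.76% of quality reads in 2T against 12.2% in 2U of batch 1, and 1.05% against 2.63% in batch 2. Per listed miRNA read, the ratios to DMSO would therefore be higher and fewer miRNAs would lie below it.

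**Figure D4:**
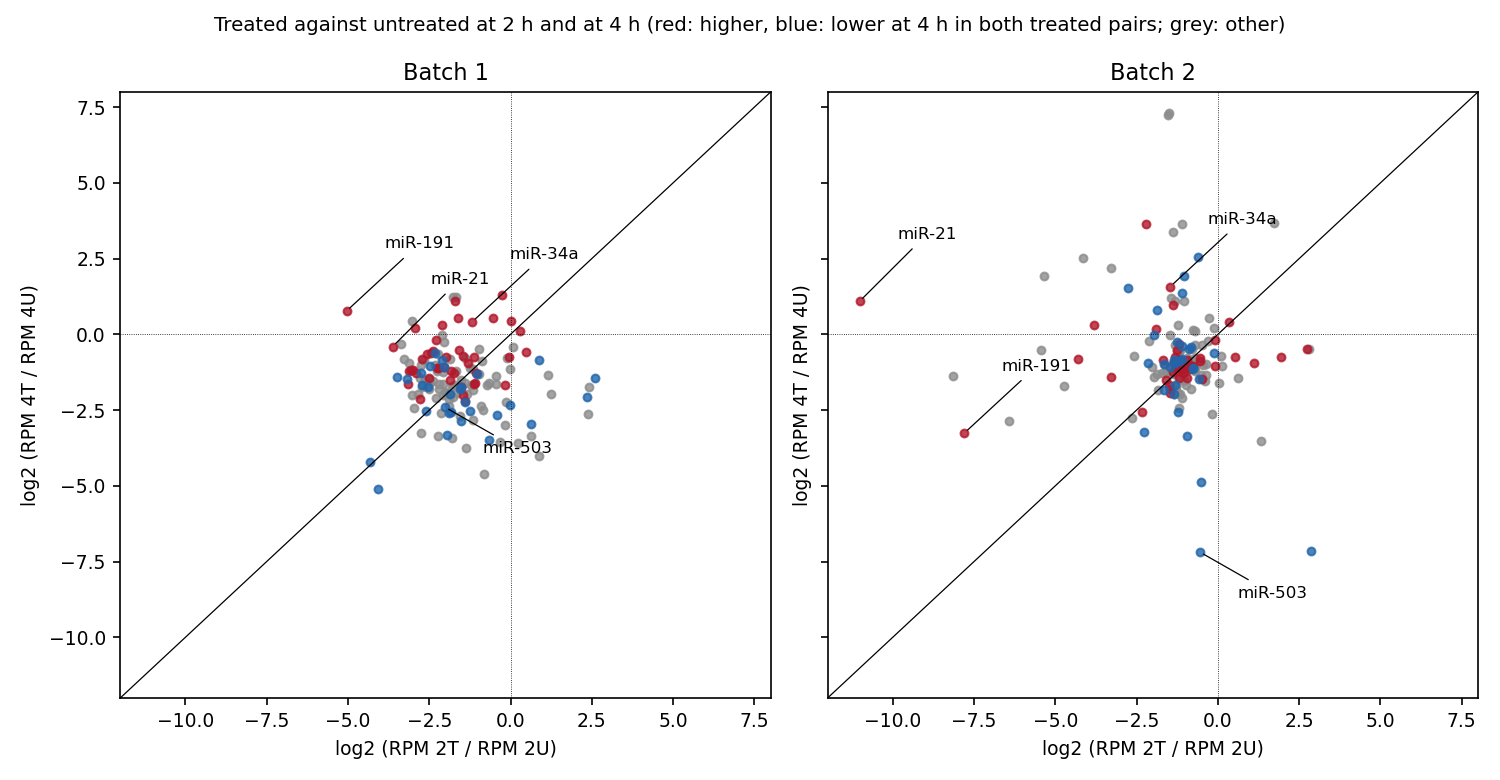
log2(RPM 2T / RPM 2U) on the x axis against log2(RPM 4T / RPM 4U) on the y axis for the tested miRNAs in batch 1 (left) and batch 2 (right), where red marks miRNAs higher and blue those lower at 4 h in both treated pairs and grey all others. Most points lie below 0 on both axes, and points above the diagonal had a higher ratio to the untreated level at 4 h than at 2 h.

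Without AcFBE the libraries also differed between 2 h and 4 h. Between 4U and 2U, 27 miRNAs were higher in both batches, 45 lower and 85 opposite, and the edgeR test again called 0 of 159 (8 at an unadjusted p under 0.05, 1 of them higher). DESeq2 called 3, miR-21 (log2 -4.55), miR-21* (-3.35) and miR-93 (-3.86), and limma called 0. Treated and untreated time changes correlated across miRNAs at r = 0.340 (rho 0.345, 157 miRNAs) in batch 1 and at r = 0.098 (rho 0.407, 156 miRNAs) in batch 2. These pairs share no library but share a batch and its sequencer. The test of the difference between the 2 time changes called 0 of 159 (5 at an unadjusted p under 0.05, all positive, smallest adjusted p 0.942). Its median log2 difference was 0.34.

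Single libraries carried several of the extreme values. In the 2T library of batch 2, 5 miRNAs (miR-185, miR-20a, miR-20b, miR-21 and miR-210) lay at least 8-fold below the lowest of the other 7 libraries, which occurred for 0 to 2 miRNAs in each of the others. miR-21, usually among the most abundant miRNAs of liver tumours, had 497 and 633 reads in 2T and 4T of batch 1 and 9 and 822 reads in batch 2, where 2U had 23151 reads. Its levels were 64.6 and 69.0 RPM in batch 1 and 0.529 and 58.3 RPM in batch 2, so the 2 batches were alike at 4 h and apart at 2 h. miR-185 had 1623 and 1191 reads in batch 1 and 3 and 518 reads in batch 2. miR-20a had 746 and 728 reads and then 39 and 851 reads, and its close relative miR-20b, which differs at 2 positions, 70 and 51 reads and then 3 and 38 reads. miR-210, a miRNA induced by hypoxia, had 300 and 249 reads in batch 1 and 0 and 569 reads in batch 2, a bound of at least 7.84 on the log2 scale. These 5 miRNAs were singled out after their values were seen. In 4T of batch 2 miR-27b and miR-503 were low in the same way, and in 4T of batch 1 miR-301a was (86 and 7 reads).

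Base composition moved with the change in batch 1. Over the 131 miRNAs with a RefSeq sequence and a ratio in both batches (84.3% of those tested had a sequence), the log2 ratio correlated with GC content of the mature miRNA at r = 0.376 (rho 0.386) in batch 1 and at r = -0.083 (rho -0.249) in batch 2. The untreated libraries gave r = 0.400 (rho 0.410) in batch 1 and -0.088 (rho -0.210) in batch 2, over 132 miRNAs. The 45 miRNAs with the lowest GC content (19.1 to 42.9%) had a median log2 ratio of -0.83 in batch 1, and 32 of them were lower at 4 h. In batch 2 their median was 0.37, and 10 were lower. The 55 with 50% GC or more had medians of 0.37 and 0.01, and 20 and 27 of them were lower. Over all tested miRNAs with a ratio, 82 of 157 were lower in batch 1 and 61 of 157 in batch 2. GC content shares sequence with family membership, and its part in the changes was not tested.

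**Figure D5:**
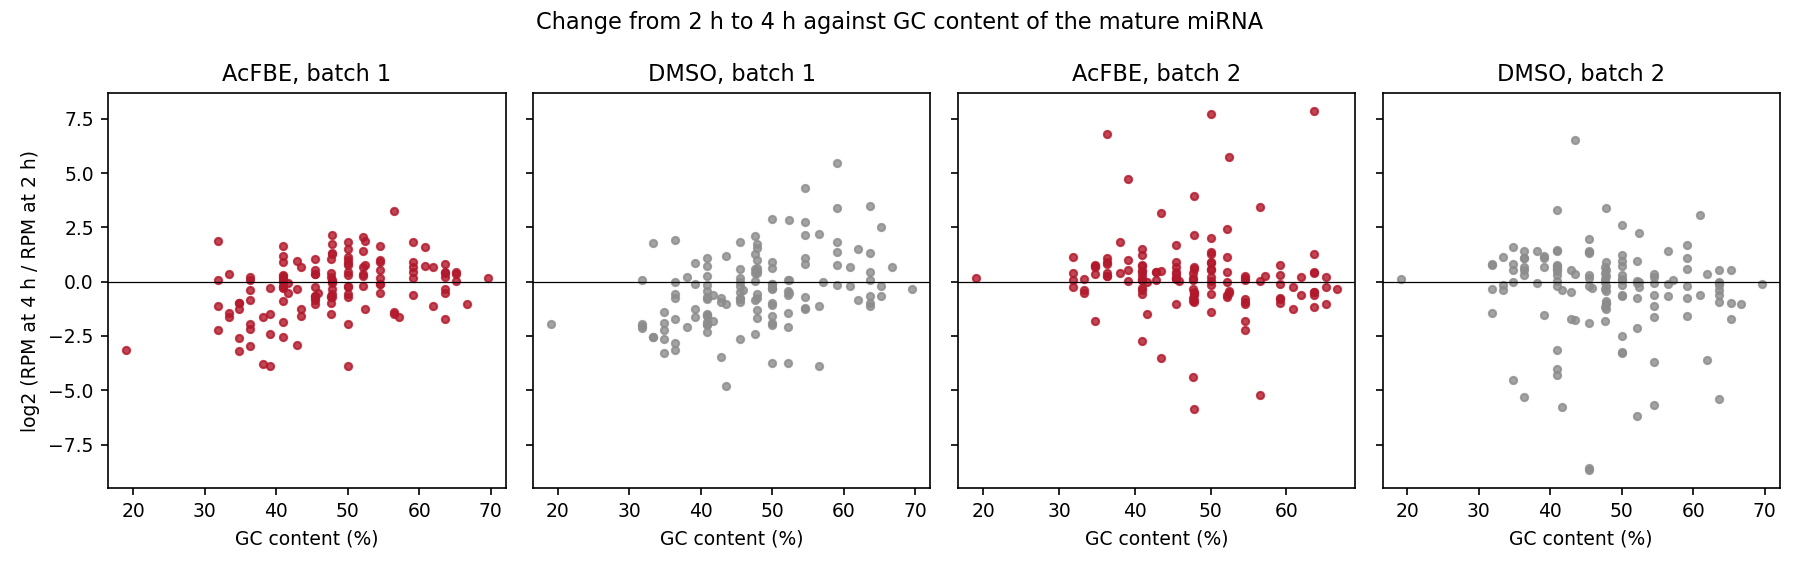
log2(RPM at 4 h / RPM at 2 h) on the y axis against GC content in percent of the mature miRNA on the x axis, for AcFBE (red) and DMSO (grey) libraries of batch 1 and batch 2, 1 point per miRNA. In batch 1 the points slope upward for AcFBE (r = 0.376) and DMSO (r = 0.400), with 32 of the 45 lowest-GC miRNAs below 0 under AcFBE, and in batch 2 they do not (r = -0.083 and -0.088).

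Markers of cell types did not move together. miR-122, the defining miRNA of hepatocytes, had 0.910 and 2.07 RPM in batch 1 and 0 and 0.142 RPM in batch 2, from 7, 19, 0 and 2 reads. It was above the level of 3 reads in batch 1 and below it in batch 2. miR-192, the other hepatocyte marker analysed and described above, was lower at 4 h in both batches (-1.49 and -0.90). miR-126, the miRNA of endothelial cells, had 26.1 and 21.7 RPM and then 19.8 and 22.4 RPM. miR-145 of smooth muscle and fibroblasts had 77.6 and 125 RPM and then 55.3 and 55.5 RPM, and miR-9 of neural cells 0.650 and 0 RPM and then 2.76 and 0.780 RPM. The other markers on the lists, among them miR-194 of hepatocytes, were not listed in both batches under their names and were not analysed further.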

How the data were processed

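The miRNA libraries of SK-HEP-1 cells were 35-base SOLiD reads. The authors kept reads of phred 20 or more, trimmed adapters with cutadapt, kept 16 to 30 bases, removed tRNA, rRNA and repeats with Bowtie 0.12.7 (the version as the submitters' processing notes name it) and assigned the rest to miRBase. They deposited counts of reads per known miRNA with at least 2 reads, without normalization. Here each count was scaled to 1000000 quality reads (from the study's library statistics) to give RPM. The test was edgeR 4.0.16 in R 4.3.3 (quasi-likelihood, condition plus batch, all 8 libraries, Benjamini-Hochberg adjustment over 159 miRNAs), with limma 3.58.1 and DESeq2 1.42.0 as alternatives. The 8 libraries share 1 estimate of the spread, since the 4 treated libraries alone leave 1 residual degree of freedom. The fit was tried on simulated counts with 40 of 159 miRNAs changed. It called 0 at a 4-fold change and 25 at an 8-fold change, of which 23 were among the changed. Python 3.11.15 gave ratios, medians and counts, with scipy 1.17.1, pandas 2.3.3 and numpy 2.4.6. Figures were drawn in matplotlib 3.10.9. Batch was the block, as same-numbered libraries come from one culture batch and sequencer, and batch deviations correlated at 0.408 to 0.698 between conditions. Replicates are n = 2 per condition.

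The named miRNAs were those past the adjusted threshold (none), the first 10 higher and first 10 lower in both batches, by the smaller change, among those with at least 10 RPM in a treated library, the 10 most abundant and the 5 with the largest opposite changes, with the members of fixed families and clusters. Members and lists were chosen with earlier results of these data known. The fixed list of fragments of other RNA (miR-720 and similar) had 0 tested members. Alternatives covered scaling, filter, tool, block and each library left out.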

Additional observations from a re-analysis of the deposited data

Results flagged for a closer look

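Of the 159 tested miRNAs, 11 moved 1 way from 2 h to 4 h in both treated pairs and the other way in both untreated pairs. None of the 11 passed the edgeR test of the difference between the treated and untreated log2 changes (adjusted p = 0.942 for each). They were picked by these directions, so the sign and part of the size of each difference follow from the selection. The differences and their unadjusted p values below are therefore descriptions only. More miRNAs moved the same way with and without AcFBE, 14 higher and 13 lower at 4 h in both treated and both untreated pairs. Of the 11, only miR-191 kept all 4 directions under the 5 other scalings. The change of miR-145 in batch 2 was 0.0053 (counting interval -0.13 to 0.14) and turned under all 5, and those of miR-21 (0.09) and miR-374b (0.06) in batch 1 and of miR-151-3p in both batches had counting intervals that include 0. miR-100, miR-130b, miR-151-3p (2 and 5 reads in batch 1, 31 and 30 in batch 2), miR-21 and miR-374b turned in a treated pair after the tRNA-filtered scaling. miR-34a, miR-130a, miR-3676 and miR-4286 turned only in an untreated pair, under 1 to 4 scalings. For miR-3676 in both batches and miR-4286 in batch 1, the counting interval included 0 as well. The difference was 4.64 (SE 1.65, unadjusted p = 0.0269) for miR-191, 6.38 (SE 2.48, unadjusted p = 0.038) for miR-21 and 1.86 (SE 0.75, unadjusted p = 0.0426) for miR-100. For miR-34a it was 2.19 (SE 1.10, unadjusted p = 0.0884). The values of the others that were higher under AcFBE and lower in DMSO were 1.28 for miR-130a, 1.63 for miR-130b, 0.57 for miR-145, 2.21 for miR-151-3p and 1.49 for miR-374b. The opposite pattern, lower under AcFBE and higher in DMSO, was that of miR-3676 (-1.05) and miR-4286 (-2.57).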

How the results depend on the processing

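The edgeR comparison of 4T with 2T gave 0 calls under all 21 alternative settings, among them the 8 that leave out a library (0 to 0 calls, also for 4U against 2U and for the difference), with 0 to 8 miRNAs at an unadjusted p under 0.05 and a smallest adjusted p of 0.201. Without the replicate block the count was 0, with 2 at that unadjusted p, and the pairing by batch changed no call. DESeq2 called 3 miRNAs between 4U and 2U. Scaling after the tRNA filter gave 21 higher, 57 lower and 8 at least 2-fold lower in both batches, medians of -0.41 and -0.10, and share ratios of 0.688 and 0.858. Scaling after the length filter gave 28, 47 and 6, medians of -0.31 and 0.0064, and ratios of 0.736 and 0.926. Scaling to the miRNA total put the batch 1 median at 0.13. Without a filter 10 of 262 were at least 2-fold higher in both. With a mean of at least 10 RPM (78 miRNAs) 26 were higher and 13 lower, 2 and 1 at least 2-fold. A 1.5-fold limit gave 11 and 11, and a 4-fold limit 3 and 0. Without miR-125b, the most abundant miRNA over the 4 treated libraries, the share ratio of batch 1 was 0.727, and without miR-29b, chosen after seeing the data, it was 1.13. The causes were not tested. Keeping miR-103a and miR-103b as 2 miRNAs, an alternative chosen after seeing the data, left these results on the same side. The fitted sign of 12 of the 33 named miRNAs turned in some setting. With 2 pairs and 1 library per condition in each batch, neither culture nor sequencer can be separated, and levels near 3 reads have wide counting intervals.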
